A study of Sus scrofa with 24 samples.

Results

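The miRNAs of the miR-17-92 cluster and of its paralogs were followed in 24 small RNA libraries from differentiating pig adipocytes. The members are the entries of the deposited expression table named ssc-miR-17, ssc-miR-18a, ssc-miR-18b, ssc-miR-19a, ssc-miR-19b, ssc-miR-20a, ssc-miR-20b, ssc-miR-25, ssc-miR-92a, ssc-miR-92b, ssc-miR-93, ssc-miR-106a or ssc-miR-106b, with any arm suffix. This rule found 13 of the 1587 entries. No entry matched miR-25, miR-93 or miR-106b, which were not analysed here. The rule takes members by name and not by their values in these libraries, but it was set with earlier results of these data known.

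The study isolated preadipocytes with collagenase from 3 Yorkshire piglets aged 6 days. The cells came from the back subcutaneous fat (BF) or from the longissimus dorsi muscle, the source of the intramuscular adipocytes (IMF). Nearly confluent cultures of either source received induction medium with 3-isobutyl-1-methylxanthine, dexamethasone and insulin for 2 days. Maintenance medium with insulin followed for 2 more days, and after that growth medium, for which the study lists no insulin. RNA was collected before induction (day 0) and on days 2, 4 and 8. The groups BF-0d, BF-2d, BF-4d, BF-8d, IMF-0d, IMF-2d, IMF-4d and IMF-8d hold 3 libraries each. The sources used here do not link a library to a piglet and do not give the sex of the piglets, and no sort for a cell type is described, so p-values measure the spread between these libraries.

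A cluster of this kind is transcribed as 1 long primary RNA that folds into several hairpins, from which Drosha and Dicer cut the mature miRNAs. Bases 2 to 8 of a mature miRNA, the seed, pair with target mRNAs, so miRNAs with the same seed can share targets. The miR-17-92 cluster is switched on by MYC, favours proliferation and cell survival, and represses RBL2 and BCL2L11 (BIM), and in mouse preadipocyte cultures it is known to speed adipogenesis through RBL2.

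The mature sequences below are shown because the members fall into few seed families and differ from their closest paralogs by few bases. They are written 5′ to 3′ with the seed in capitals. The seed AAAGUGC belongs to 4 members, of which miR-17-5p and miR-20a-5p lie on chromosome 11 and miR-106a and miR-20b on chromosome X.
ssc-miR-17-5p: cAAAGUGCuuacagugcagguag
ssc-miR-106a: aAAAGUGCuuacagugcagguagc
ssc-miR-20b: cAAAGUGCucacagugcagguag
ssc-miR-20a-5p: uAAAGUGCuuauagugcaggua
Counted from 1 at the 5′ end, miR-17-5p and miR-106a differ by C1A over their shared length, miR-17-5p and miR-20b by U10C, and miR-17-5p and miR-20a-5p by C1U and C12U. A read that lacks the first base and ends within the shared length therefore matches miR-17-5p and miR-106a alike.

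The seeds AAGGUGC (miR-18a and miR-18b), GUGCAAA (miR-19a and miR-19b) and AUUGCAC (miR-92a and miR-92b-3p) define the other families. The paralogs differ by A20U over the shared length of miR-18a and miR-18b, by U11C between miR-19a and miR-19b, and by U10C, G21C and U22C between miR-92a and miR-92b-3p.
ssc-miR-18a: uAAGGUGCaucuagugcagaua
ssc-miR-18b: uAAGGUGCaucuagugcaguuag
ssc-miR-19a: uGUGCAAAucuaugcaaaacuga
ssc-miR-19b: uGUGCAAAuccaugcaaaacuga
ssc-miR-92a: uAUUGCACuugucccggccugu
ssc-miR-92b-3p: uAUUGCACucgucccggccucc
The AUUGCAC seed is shared with 2 entries outside the rule, miR-363 and miR-32, which are given below as relatives.
ssc-miR-363: aAUUGCACgguauccaucuguaa
ssc-miR-32: uAUUGCACauuacuaaguugc

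The hairpin of miR-17 is shown because both of its arms were counted, with the mature miRNAs in capitals, first miR-17-5p and then miR-17-3p.
MIR17: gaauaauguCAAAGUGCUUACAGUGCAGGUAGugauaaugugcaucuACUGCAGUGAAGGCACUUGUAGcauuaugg
In Sscrofa11.1 it opens the cluster at chr11:60734656-60735437 on the plus strand, which spans 782 nt and holds MIR17, MIR18A, MIR19A, MIR20A, MIR19B-1 and MIR92A-1 in this order. The paralog cluster at chrX:110113552-110114468 lies on the minus strand, spans 917 nt and holds, in the direction of transcription, MIR106A, MIR18B, MIR20B-1, MIR19B-2, MIR92A-2 and MIR363-1. MIR92B stands alone at chr4:94624285-94624364 on the minus strand. RefSeq annotates these hairpins outside other genes, whereas MIR32 on chromosome 1 lies in an intron of TMEM245. The mature sequences of miR-19b and miR-92a occur 2 times in the genome, in both clusters, so their reads cannot be assigned to chromosome 11 or X, and the other 11 members occur 1 time each.

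**Figure D1:**
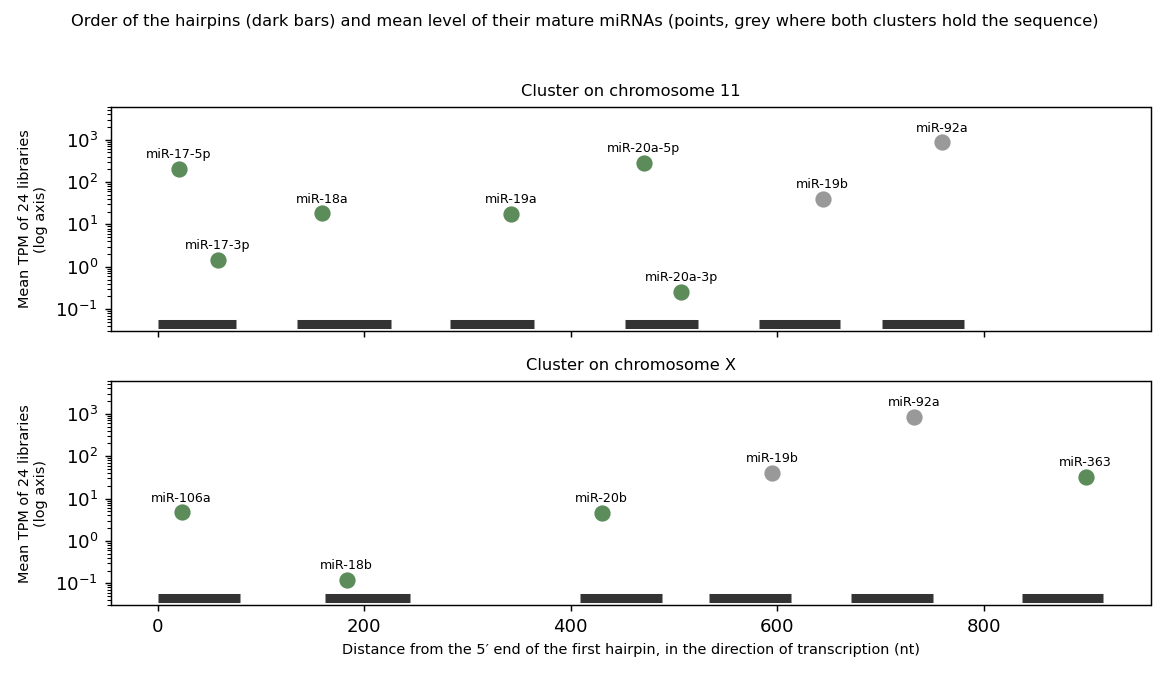
Hairpins of the clusters on chromosome 11 and chromosome X (dark bars, distance in nt from the first hairpin) and the mean level of each mature miRNA over the 24 libraries (points, TPM on a log axis, grey where both clusters hold the sequence). The members found on chromosome X alone lie at 4.72 TPM (miR-106a), 4.57 TPM (miR-20b) and 0.118 TPM (miR-18b), against 207 TPM for miR-17-5p and 289 TPM for miR-20a-5p on chromosome 11.

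The values are TPM as the authors named them, the reads of an entry per 1000000 reads counted on miRNAs in that library, with no correction for length. Libraries held 4954845 to 16863560 such reads, with a median of 10614384, so 3 reads, taken as the floor, were worth 0.178 to 0.605 TPM. The members together took 0.104% to 0.295% of a library, and miR-21-5p alone took 27.9% to 60.5%. On days 0, 2, 4 and 8 the members of the BF groups summed to 1606 ± 131, 1758 ± 152, 2290 ± 575 and 1979 ± 292 TPM (SD, n = 3). In the IMF groups the sums were 1147 ± 135, 1167 ± 110, 1177 ± 154 and 1133 ± 98.6 TPM (SD, n = 3). The lowest BF library, at 1462 TPM, lay above the highest IMF library, at 1355 TPM.

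Most of these reads came from few members. miR-92a made up 56.5% of the mean member total, miR-20a-5p 18.9%, miR-17-5p 13.5%, miR-92b-3p 5.30% and miR-19b 2.62%. The minor arms were scarce: miR-17-3p had a mean of 1.45 TPM and 0 to 30 reads a library, and miR-92b-5p 1.35 TPM and 5 to 32 reads. Testing required a mean level of 1 TPM or more, which 430 entries had, 11 of them members. The other members were miR-20a-3p, with 63 reads in all libraries together, and miR-18b, with 31. Pooled over the 12 libraries of a source, miR-18b stood at 0.151 TPM in BF (95% exact Poisson interval 0.0907 to 0.235, counting error only) and 0.0874 TPM in IMF (0.0452 to 0.153), and a difference was not detectable at this depth. miR-20a-3p, the minor arm of MIR20A, stood at 0.301 TPM in BF (0.213 to 0.414) and 0.182 TPM in IMF (0.118 to 0.269), with overlapping intervals.

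The first question was whether the sources differ on the same day. A member was called where limma gave a Benjamini-Hochberg adjusted p under 0.05 and a fold change above 1.5 on log2(TPM + 1), a scale that understates the change of scarce miRNAs, and log2 fold changes are IMF minus BF. On day 0 only 1 of 11 tested members was called, miR-92a, lower in IMF, beside 15.8% of all tested entries lower in IMF. On day 2, 4 members were lower in IMF against 6.51% of the entries, on day 4, 8 members against 28.8%, and on day 8, 9 members against 25.1%. No member was called higher in IMF, where 13.5%, 5.81%, 7.44% and 12.1% of the entries were on days 0, 2, 4 and 8. Every IMF library lay below every BF library for 2, 8, 8 and 9 members on these days, beside 29.5%, 20.5%, 41.2% and 34.9% of the entries, and on day 8 above them for 1 member beside 16.3%. The median log2 fold change of the 11 members on the 4 days was -0.19, -0.59, -0.94 and -0.85, beside -0.13, -0.14, -0.34 and -0.28 for all tested entries.

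The scaling of the libraries bears on these counts. Median-of-ratios scaling, which sets the typical entry equal between libraries, moved the median of all tested entries from -0.34 to -0.00095 on day 4 and from -0.28 to -0.03 on day 8, and the percent of calls that were lower in IMF moved on days 0, 2, 4 and 8 from 54, 52.8, 79.5 and 67.5 to 37.6, 40, 56.7 and 43.5. Under this scaling 0, 2, 3 and 4 of the 11 members were called on these days, beside 23.5%, 14.0%, 27.9% and 34.2% of all tested entries, and 1 of those on day 8, miR-92b-3p, was higher in IMF. The member medians kept their sign, at -0.04, -0.46, -0.53 and -0.53. miR-21-5p, the most abundant entry, took 49.0% to 55.1% of the reads in BF-4d and 53.0% to 56.1% in IMF-4d, and 27.9% to 40.3% in BF-8d and 39.4% to 45% in IMF-8d. The part of these shares in the results was not tested.

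**Figure D2:**
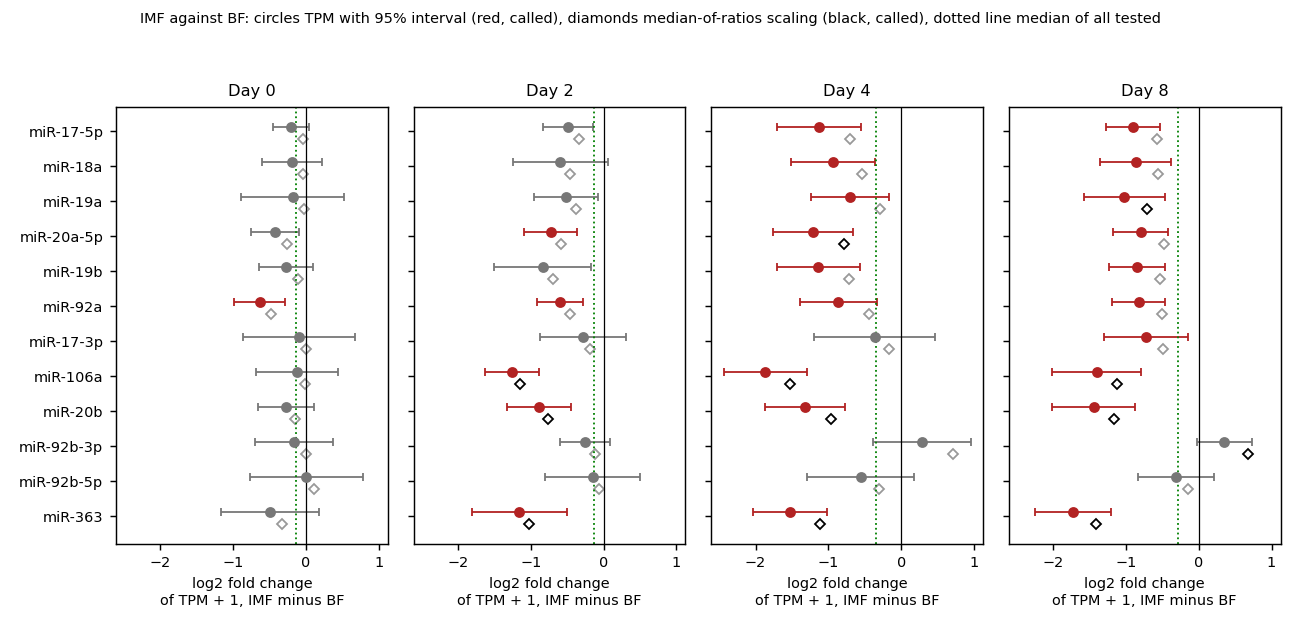
Log2 fold change of TPM + 1, IMF minus BF, for the 11 tested members and the relative miR-363 on each day. Circles with 95% intervals are the limma fit on TPM (red where called), diamonds the fit after median-of-ratios scaling (black where called), and the dotted line the median of all tested entries, -0.34 on day 4. Only miR-106a, miR-20b and miR-363 were called with both scalings on days 2, 4 and 8.

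miR-106a, the first miRNA of the X cluster and a seed partner of miR-17-5p, showed the widest gap among the members on day 4. Its levels were 2.89, 3.25 and 3.80 TPM in BF-0d, 5.94, 4.28 and 5.23 in BF-2d, 7.85, 15.2 and 9.42 in BF-4d, and 5.30, 12.9 and 9.08 in BF-8d. In IMF they were 4.31, 2.08 and 2.70 TPM on day 0, 1.498, 1.81 and 1.38 on day 2, 1.86, 2.19 and 2.37 on day 4, and 2.97, 2.81 and 2.15 on day 8. The sources overlapped on day 0, and from day 2 on every BF library lay above every IMF library of its day.

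The counts behind miR-106a are small, 13 to 144 reads a library. The log2 fold change on day 0 was -0.13 (95% interval -0.69 to 0.43, limma adjusted p = 0.711). On days 2, 4 and 8 it was -1.26, -1.87 and -1.40, with standard errors of 0.15, 0.26 and 0.28 (limma adjusted p = 0.0132, 2.80e-04 and 0.00124). With median-of-ratios scaling the last 3 values were -1.15, -1.52 and -1.12, all called. On day 4 the call held in each of the 13 alternatives run, and on day 8 in 12, the exception being the fit without a filter. On day 2 it was lost in 4 of 13, among them the fits without IMF-2d replicate 1 or 3 and without a filter on low values.

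miR-20b lies in the middle of the X cluster and has the same seed. Its levels were 3.89, 4.11 and 3.68 TPM in BF-0d, 7.06, 6.57 and 4.54 in BF-2d, 5.97, 10.2 and 8.98 in BF-4d, and 4.83, 7.58 and 10.3 in BF-8d. The IMF libraries held 3.85, 2.41 and 3.01 TPM on day 0, 2.50, 3.12 and 2.75 on day 2, 3.37, 2.32 and 2.46 on day 4, and 2.52, 1.67 and 2.00 on day 8. Of the 12 BF libraries, 11 were above the highest IMF library of any day. The log2 fold changes of -0.88, -1.32 and -1.44 on days 2, 4 and 8 passed with limma adjusted p = 0.0304, 0.00179 and 6.30e-04. Leaving out any library of day 2 other than BF-2d replicate 3 ended the call of that day, with an adjusted p of up to 0.138 over all alternatives, whereas the calls of days 4 and 8 held in every fit without a library.

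The relative miR-363, the last hairpin of the X cluster, has the AUUGCAC seed. Its mean level in BF was 33.3 ± 5.49 TPM on day 0 and 51.8 ± 14.0 on day 8, and in IMF 23.9 ± 7.29 and 14.8 ± 3.36 (SD, n = 3). On days 2, 4 and 8 it was lower in IMF by log2 fold changes of -1.16, -1.53 and -1.72 (limma adjusted p = 0.0415, 4.25e-04 and 6.77e-05), and on days 4 and 8 these calls held in all 14 alternatives. On day 2 the call was lost in 8 of 14 alternatives, among them every fit without a library except that without BF-2d replicate 3. From BF-0d to BF-8d its log2 fold change was 0.60 (limma adjusted p = 0.0489), a call that held in 3 of 14 alternatives. The relative miR-32, at 14.3 to 46.3 TPM over all libraries, was called in none of the 12 comparisons by limma.

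On chromosome 11, miR-17-5p heads the cluster and is its best known product. The BF libraries held 197, 200 and 215 TPM on day 0, 217, 195 and 182 on day 2, 221, 413 and 353 on day 4, and 245, 330 and 334 on day 8. The IMF libraries held 198, 167 and 167 TPM on day 0, 124, 162 and 139 on day 2, 150, 127 and 159 on day 4, and 177, 163 and 143 on day 8. The groups overlapped on day 0 and not on later days, and the libraries of BF-4d and BF-8d, the groups with the highest means, overlapped each other and lay above those of BF-0d.

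The log2 fold change of miR-17-5p was -0.49 on day 2 (limma adjusted p = 0.0797), -1.13 on day 4 (limma adjusted p = 0.00501) and -0.90 on day 8 (limma adjusted p = 9.19e-04). After median-of-ratios scaling it was -0.71 on day 4 (limma adjusted p = 0.0503) and -0.58 on day 8 (limma adjusted p = 0.0066), the latter under the fold change of 1.5, so both calls were lost. Leaving out a library ended neither of them.

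miR-20a-5p, the most abundant member of the AAAGUGC family, ranged from 347 to 618 TPM in BF-4d and from 192 to 222 TPM in IMF-4d. Its log2 fold changes were -0.73, -1.21 and -0.80 on days 2, 4 and 8 (limma adjusted p = 0.0304, 0.00247 and 0.00227), and the call of day 4 alone held under median-of-ratios scaling, at -0.78 (limma adjusted p = 0.0258). The day 2 call was also lost without BF-2d replicate 1 or 2 and without IMF-2d replicate 1 or 3. Summed over its 4 members, the AAAGUGC family stood at 526 ± 26.9 TPM on day 0 and 839 ± 239 on day 4 in BF, and at 419 ± 57.1 and 356 ± 31.8 in IMF (SD, n = 3). miR-17-5p and miR-20a-5p supplied nearly all of it, since miR-106a made up at most 1.67% and miR-20b at most 1.35% of the family in any library.

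The miR-19 and miR-18 families were scarcer. miR-19b, which is regarded as the main oncogenic product of the cluster, held 54.1, 104 and 72.6 TPM in BF-4d against 33.3, 35.3 and 31.1 in IMF-4d, a log2 fold change of -1.14 (limma adjusted p = 0.00463). On day 8 it held 46.7, 54.5 and 64.2 TPM in BF against 30.04, 29.9 and 29.8 in IMF, a change of -0.85 (limma adjusted p = 0.00167). miR-19a was called at -0.71 on day 4 (limma adjusted p = 0.0407) and -1.02 on day 8 (limma adjusted p = 0.00594), and miR-18a at -0.94 (limma adjusted p = 0.0134) and -0.87 (limma adjusted p = 0.00689). The BF and IMF libraries of these 3 miRNAs did not overlap on either day.

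Of these 6 calls, only that of miR-19a on day 8 held under median-of-ratios scaling, at -0.71 (limma adjusted p = 0.0365). On day 4 miR-19a was lost as well without BF-4d replicate 1 or 2 and without IMF-4d replicate 2 or 3, and miR-18a without BF-4d replicate 3. miR-17-3p, the minor arm of MIR17, was called on day 8 alone, at -0.72 (limma adjusted p = 0.0423) with 12 to 29 reads a library, and lost the call in 4 of the 6 fits without a library, those without BF-8d replicate 3 and without each IMF-8d replicate. Median-of-ratios scaling gave -0.50 (limma adjusted p = 0.139) and also ended it.

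miR-92a, the most abundant member, whose sequence both clusters hold, was lower in IMF on each day. It held 954, 1025 and 768 TPM in BF-0d and 656, 566 and 535 in IMF-0d, and 951, 1255 and 1133 in BF-8d and 702, 590 and 585 in IMF-8d. Every BF library lay above every IMF library of its day, and 11 of the 12 BF libraries lay above the highest IMF library of any day. The log2 fold changes were -0.64, -0.60, -0.86 and -0.83 on days 0, 2, 4 and 8 (limma adjusted p = 0.0211, 0.0324, 0.0135 and 0.00126). The call of day 0 was lost in 8 of 14 alternatives, including the fits without BF-0d replicate 1 or 2 and without IMF-0d replicate 2 or 3, and that of day 2 in 10. That of day 4 was lost without BF-4d replicate 2 and without IMF-4d replicate 1 or 2, and that of day 8 held without any 1 library. Median-of-ratios scaling gave -0.47, -0.46, -0.44 and -0.50, each below the fold change of 1.5.

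**Figure D3:**
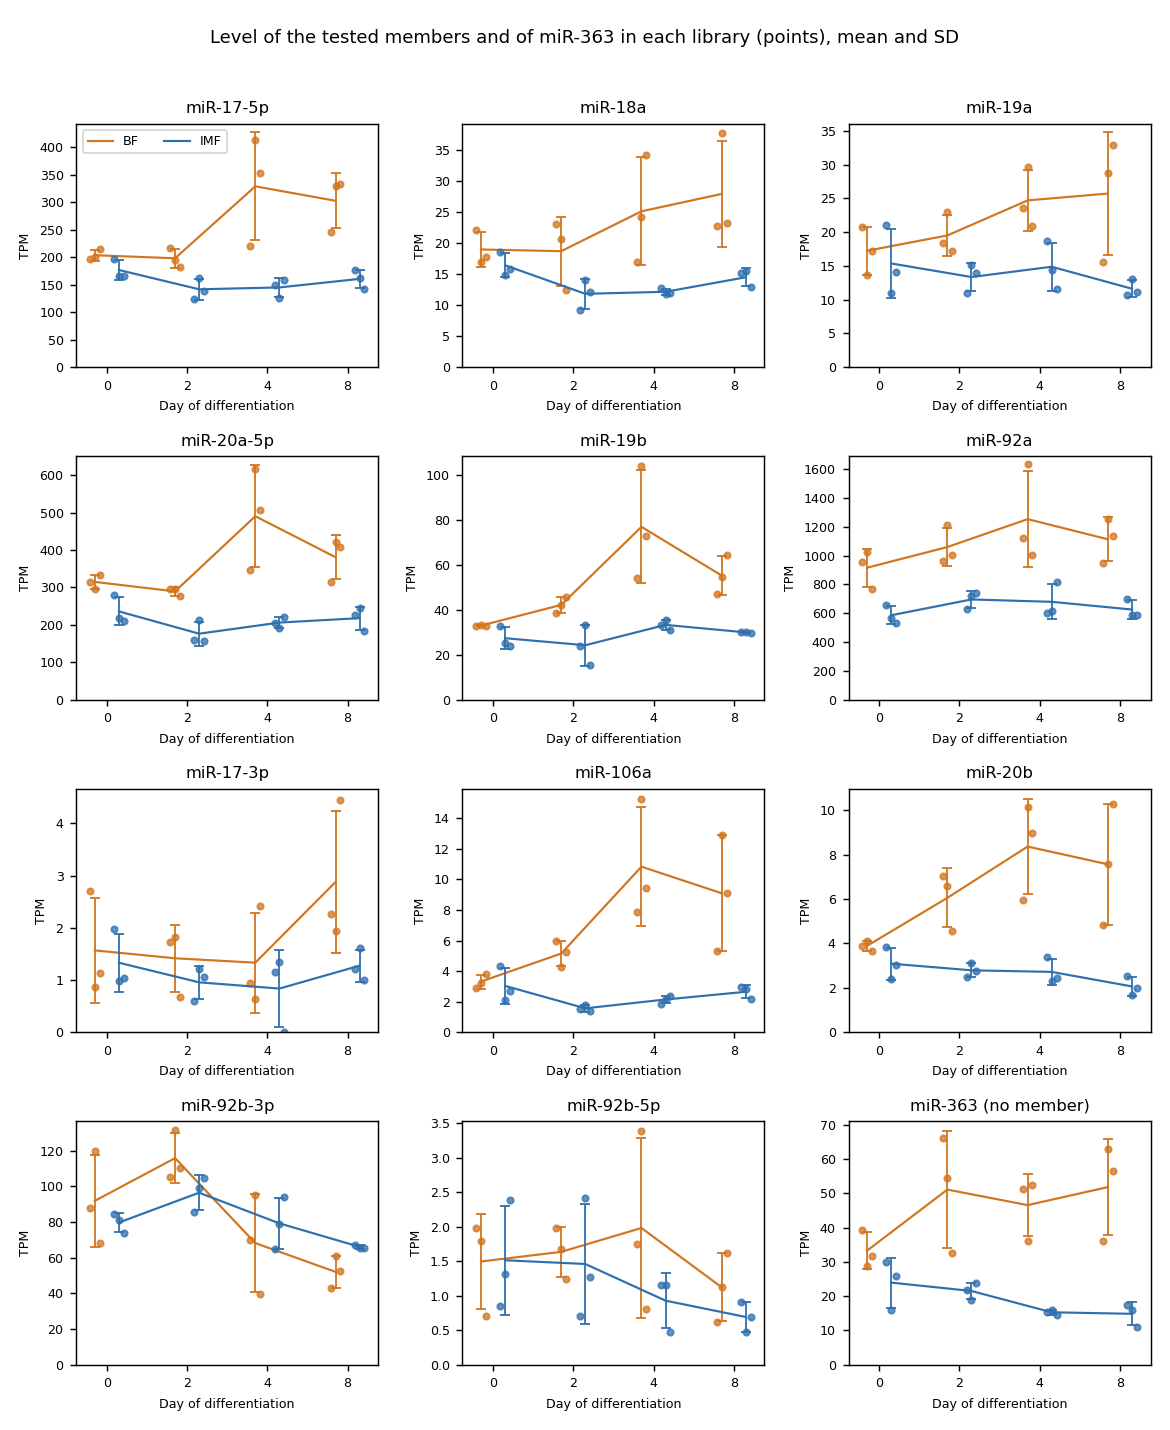
Level in TPM of each tested member and of miR-363 by day of differentiation, with 3 libraries per group (points), the mean (line) and the SD (bars), BF in orange and IMF in blue. The BF mean lies above the IMF mean from day 2 on for the tested members of both clusters. The lines of miR-92b-3p cross between day 2 and day 4, from 116 against 96.5 TPM to 68.2 against 79.3 TPM.

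miR-92b-3p, encoded apart from the clusters but with the seed of miR-92a, was not called lower in IMF on any day. Its levels were 87.8, 120 and 68.3 TPM in BF-0d, 105, 132 and 111 in BF-2d, 69.9, 94.99 and 39.7 in BF-4d, and 42.8, 61.1 and 52.3 in BF-8d. In IMF they were 84.3, 81.0 and 73.8 TPM on day 0, 85.5, 99.3 and 105 on day 2, 65.0, 78.8 and 94.0 on day 4, and 67.2, 65.6 and 65.5 on day 8. The log2 fold change went from -0.26 on day 2 (95% interval -0.60 to 0.08) to 0.28 on day 4 (-0.38 to 0.95) and 0.35 on day 8 (-0.03 to 0.74), none of them called. On day 8, where the 3 IMF libraries lay above the 3 BF libraries, median-of-ratios scaling gave 0.67 (limma adjusted p = 0.00456) and passed, as did edgeR and DESeq2, so whether miR-92b-3p differs between the sources on day 8 depended on the scaling or the tool. On day 4 median-of-ratios scaling gave 0.71 (limma adjusted p = 0.082), and without BF-4d replicate 3 the value changed sign, to -0.056. The minor arm miR-92b-5p was called in none of the 12 comparisons by limma.

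The next question was how the members moved along differentiation within a source. Between BF-0d and BF-8d, 3 members were called higher, miR-106a, miR-20b and miR-19b, beside 27.9% of all tested entries, and 1 lower, miR-92b-3p, beside 14.9%. Both shares of the 11 tested members, 3 and 1, were near or under the background. miR-106a rose from 3.31 ± 0.454 to 9.09 ± 3.80 TPM (SD, n = 3). On the log2 scale the rise was 1.16, with a standard error of 0.28 (limma adjusted p = 0.00285). miR-19b rose from 32.9 ± 0.374 to 55.1 ± 8.74 TPM, by 0.72 (limma adjusted p = 0.00911), and miR-20b from 3.89 ± 0.217 to 7.57 ± 2.73 TPM, by 0.76 (limma adjusted p = 0.0263). Under median-of-ratios scaling these values were 0.98, 0.53 and 0.59, and miR-19b fell below the fold change of 1.5. The call of miR-20b held in the fit without BF-8d replicate 1 but in none of the other 5 fits without a library.

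miR-92b-3p fell from 91.9 ± 25.9 TPM in BF-0d to 52.1 ± 9.17 TPM in BF-8d (SD, n = 3). On the log2 scale the change was -0.79, with a standard error of 0.23 (limma adjusted p = 0.0113). The call was lost without BF-0d replicate 2 and held under median-of-ratios scaling, at -0.97 (limma adjusted p = 0.00149). miR-17-5p, at 204 ± 10.04 TPM on day 0 and 303 ± 49.8 on day 8, had a log2 fold change of 0.56 (limma adjusted p = 0.0271), under the fold change that a call needs. The median over the 11 members was 0.50 and that over all tested entries 0.15.

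No member was called by limma between adjacent days of BF. Of all tested entries 4.19% were called between BF-0d and BF-2d, 6.05% between BF-2d and BF-4d and 3.02% between BF-4d and BF-8d. The members with an unadjusted p under 0.05 numbered 3, 5 and 0 of 11 in these comparisons, beside 24.2%, 27.2% and 23.0% of all tested entries. The 5 of BF-2d against BF-4d were miR-106a (log2 fold change 0.90), miR-19b (0.80), miR-20a-5p (0.72) and miR-17-5p (0.68), all with higher values in every BF-4d library, and miR-92b-3p (-0.84, and -0.50 without BF-4d replicate 3), with lower values in each. Over all tested entries 24.4% were higher and 10.5% lower in every BF-4d library. In this comparison edgeR called 0 members and DESeq2 1, miR-92b-3p, beside 17 and 54 of the 430 entries. In the other adjacent BF comparisons both tools called 0 members, beside 56 entries each between BF-0d and BF-2d and 13 (edgeR) and 24 (DESeq2) between BF-4d and BF-8d. Among the limma alternatives, 1 fit of all libraries called 5 members between BF-2d and BF-4d, beside 104 entries. The fit without BF-4d replicate 1 called 4 members there, beside 78 entries.

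In IMF no member was called between adjacent days or between IMF-0d and IMF-8d, by limma, edgeR or DESeq2. Of all tested entries, limma called 0% between IMF-0d and IMF-2d and between IMF-2d and IMF-4d, 13.0% between IMF-4d and IMF-8d and 30.5% between IMF-0d and IMF-8d. In the same order edgeR called 7, 1, 65 and 147 of the 430 entries and DESeq2 9, 2, 62 and 136. An unadjusted p under 0.05 was reached by 1, 1, 0 and 1 of the 11 members in these comparisons, beside 15.8%, 15.1%, 32.3% and 46.5% of all tested entries. The median log2 fold change of the members from IMF-0d to IMF-8d was -0.14, beside 0.07 for all tested entries. For miR-17-5p it was -0.14 (95% interval -0.45 to 0.17) and for miR-106a -0.11 (-0.65 to 0.42). The day comparisons of a source and the comparisons between sources use the same libraries and are not independent of each other.

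Whether the time course itself differs between the sources was tested as an interaction of source and day in a fit of the 24 libraries. It passed for 3 of the 11 tested members beside 31.6% of all tested entries. miR-106a had a limma adjusted p = 0.00325, miR-20b 0.0258 and miR-17-5p 0.0397, and the relative miR-363 had 0.041. For miR-106a the interaction held in each of the 24 fits without a library (adjusted p up to 0.0197) and under median-of-ratios scaling (0.00626). For miR-20b it held in 20 of 24, and it was lost without BF-0d replicate 1 or 3, without IMF-0d replicate 1 and without IMF-8d replicate 2, with an adjusted p up to 0.0788.

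The interaction of miR-17-5p held in 7 of 24 fits without a library and was lost under median-of-ratios scaling, with an adjusted p of 0.151. Those that kept it left out BF-2d replicate 1 or 3, BF-4d replicate 1, BF-8d replicate 1, IMF-2d replicate 1, IMF-4d replicate 3 or IMF-8d replicate 1. For miR-363 it held in 10 of 24, with a highest adjusted p of 0.135. miR-92a, the member called between the sources on all 4 days, gave an interaction adjusted p of 0.762, and miR-92b-3p one of 0.308.

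Ratios of members within a library do not depend on how libraries are scaled, and they are given here as descriptions. miR-106a stood at 1.62% ± 0.145 of miR-17-5p in BF-0d, 2.60% ± 0.359 in BF-2d, 3.30% ± 0.552 in BF-4d and 2.93% ± 0.895 in BF-8d (SD, n = 3). In IMF the values were 1.68% ± 0.471, 1.10% ± 0.111, 1.49% ± 0.241 and 1.64% ± 0.116 (SD, n = 3). The sources overlapped on day 0, and from day 2 on the lowest BF library of a day lay above the highest IMF library of that day.

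The members found on chromosome X alone, summed, were 1.22% to 1.40% of those found on chromosome 11 alone in BF-0d and 1.12% to 1.61% in IMF-0d. In the later BF groups this share was 2.00% to 2.33%, 2.06% to 2.37% and 1.71% to 2.52%, and in the later IMF groups it was 1.24% to 1.38%, 1.19% to 1.35% and 1.02% to 1.30%. From day 2 on, the BF and IMF libraries did not overlap.

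Among members of the chromosome 11 cluster, miR-20a-5p was 122% to 160% of miR-17-5p in the BF libraries and 112% to 151% in the IMF libraries, and miR-18a 5.86% to 11.4% and 7.42% to 9.53%. For the arms of MIR17, miR-17-3p stood at 0.712% ± 0.378 of miR-17-5p over the 12 BF libraries and 0.701% ± 0.281 over the 12 IMF libraries (SD).

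Of the seed partners, miR-92b-3p was 9.92% ± 1.52 of miR-92a in BF-0d, 10.9% ± 0.037 in BF-2d, 5.33% ± 1.20 in BF-4d and 4.66% ± 0.189 in BF-8d (SD, n = 3). In IMF the ratio was 13.7% ± 0.740, 13.9% ± 0.226, 11.7% ± 1.04 and 10.6% ± 0.908 (SD, n = 3). On each day the 3 IMF libraries lay above the 3 BF libraries, and the BF libraries of days 4 and 8 were all below those of days 0 and 2. With their relatives miR-363 and miR-32 the AUUGCAC family summed to 1249 ± 181 TPM in BF-8d and 733 ± 73.3 TPM in IMF-8d (SD, n = 3).

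**Figure D4:**
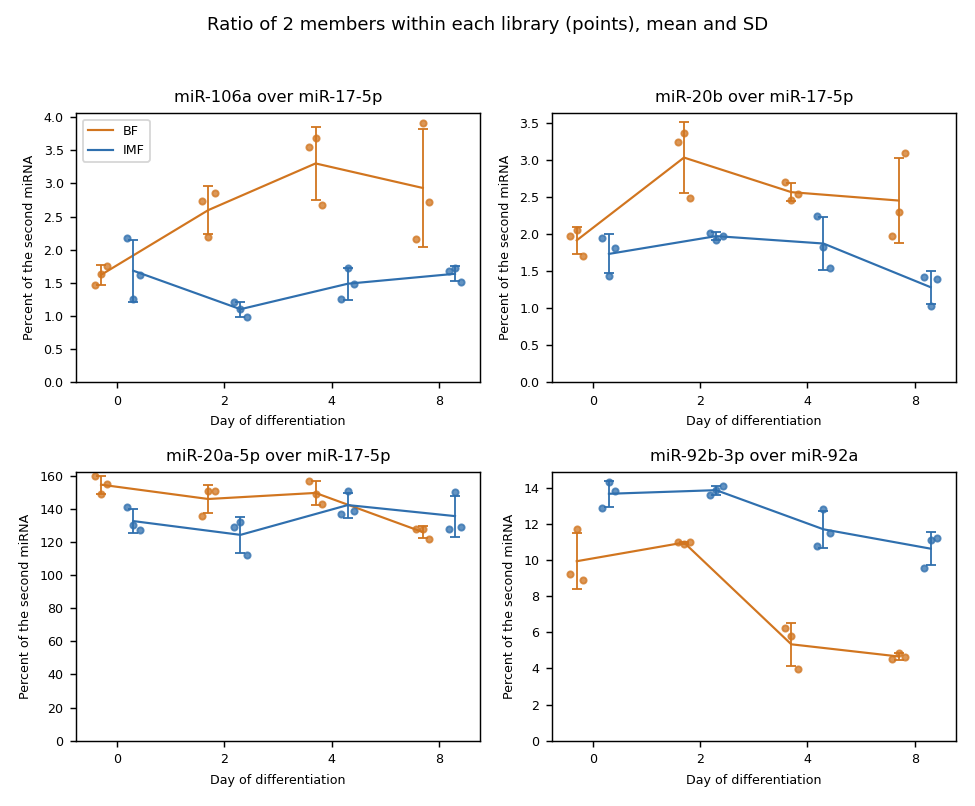
Ratio of a member to another within each library, in percent, by day of differentiation (points are libraries, lines the mean, bars the SD, n = 3, BF in orange and IMF in blue). miR-106a over miR-17-5p separates the sources from day 2 on, miR-20a-5p over miR-17-5p stays between 112% and 160% in all libraries, and miR-92b-3p over miR-92a is between 3.96% and 6.22% in BF-4d.

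Over the 8 group means of log2(TPM + 1), the entries outside the members and relatives whose pattern was most like that of miR-17-5p were miR-138 (Pearson r = 0.975), miR-140-3p (0.974), miR-296-3p (0.972), and miR-9 and miR-9-1 (0.967 each, with the same values). Among the members r was 0.975 for miR-106a, 0.974 for miR-18a, 0.972 for miR-20a-5p, 0.927 for miR-19a, 0.914 for miR-19b and miR-20b, 0.856 for miR-92a, 0.695 for miR-17-3p, 0.44 for miR-92b-5p and -0.546 for miR-92b-3p. These values describe 8 points that share the libraries and their scaling. miR-140-3p, for example, stood at 863 ± 173 TPM in BF-0d, 1148 ± 210 in BF-4d and 603 ± 107 in IMF-4d (SD, n = 3). miR-138 stood at 19 ± 22.3 TPM in BF-4d (SD, n = 3), an SD above the mean. Its IMF means on days 0, 2, 4 and 8 were 0.305, 0.0335, 0.0592 and 0.484 TPM, beside a floor of 0.178 to 0.605 TPM.

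miRNAs that mark other cells were present at unequal levels, and their part in the results was not tested. The endothelial miR-126-3p and miR-126-5p, both detected, summed to 26.4 to 90.9 TPM over the BF libraries and 18.2 to 40.4 TPM over the IMF libraries, with medians on days 0, 2, 4 and 8 of 69.7, 42.8, 66.1 and 79.3 TPM in BF and 31.6, 27.1, 28.5 and 25.9 TPM in IMF. All 7 blood miRNAs were found, summing to 0.662 to 8.08 TPM, with medians on days 0, 2, 4 and 8 of 1.46, 2.04, 3.70 and 3.97 TPM in BF and 1.75, 1.69, 1.29 and 7.38 TPM in IMF. Of these, miR-150 had 1 read in all libraries together and miR-144 and miR-223 had 3 each. The 6 skeletal muscle entries found of 7 listed summed to 475 to 2362 TPM, nearly all of it miR-1, while miR-206 had reads in 11 libraries. Their medians on days 0, 2, 4 and 8 were 958, 514, 1146 and 1633 TPM in BF and 1284, 968, 845 and 1189 TPM in IMF, lower in BF on days 0 and 2 and higher on days 4 and 8. The mesenchymal miRNAs, 5 entries led by miR-143-3p, took 50843 to 99693 TPM. The list of those that rise in fat cells held miR-378, miR-30a-5p and miR-148a-3p. Their sum had medians of 113833 TPM in BF-0d, 279867 TPM in BF-8d, 120777 TPM in IMF-0d and 249268 TPM in IMF-8d. Nearly all of it was miR-148a-3p, with a mean over all libraries of 170856 TPM, against 980 for miR-30a-5p and 665 for miR-378. In such bulk cultures fewer cells of a type and less RNA per cell cannot be told apart.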

How the data were processed

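Small RNA was sequenced as 50-nt single-end reads from 24 libraries, 3 for each of 8 groups. The authors mapped clean reads to Sscrofa11.1 with Bowtie, allowing no mismatch, removed tRNA, rRNA, snoRNA and snRNA, named known miRNAs by BLAST against miRBase, predicted others with miRDeep2, and tested with DESeq2. The deposited table holds RPM, which the authors call TPM: reads per 1000000 reads counted on the 1587 listed entries, with no length term. Groups were taken from the sample labels.

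Testing required a mean level of 1 TPM or more across the 24 libraries, which 430 entries had. limma (3.58.1, with a mean trend, R 4.3.3) was fitted to log2(TPM + 1) of the groups compared, in 12 comparisons, with Benjamini-Hochberg adjustment over all tested entries. An entry was called at an adjusted p under 0.05 and a fold change above 1.5, and the source-by-day interaction, a moderated F test over 24 libraries, at an adjusted p under 0.05. Whole reads could be recovered for 38088 of 38088 values, each within 0.01 of a whole read, and were tested with edgeR 4.0.16 and DESeq2 1.42.0 as alternatives: on day 4 between sources edgeR called 116 entries, DESeq2 127 and limma 156. The scripts were tested on simulated data. Python 3.11.15, pandas 2.3.3, SciPy 1.17.1 and Matplotlib 3.10.9 were used for summaries and figures.

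The alternatives were a pseudocount of 0.1 TPM, no filter on low values, a filter at 10 TPM in place of 1, median-of-ratios scaling, the replicate number as a block, 1 fit of all libraries, edgeR, DESeq2 and leaving out each library. All members, the entries with a member's seed and the 5 entries most like miR-17-5p were named, with miR-21-5p. The members and lists were chosen with earlier results of these data known. Sequences were taken from the study's supplementary sequences and matched to Sscrofa11.1, and hairpins and genes from RefSeq. Intervals and floors from reads cover counting error only. Libraries with the same replicate number were compared by the correlation of their deviations from the group means over 36 pairs, which ran from -0.329 to 0.509, with every pair over 0.1 only for BF-0d against IMF-0d.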

Additional observations from a re-analysis of the deposited data

Results flagged for a closer look

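The interaction of source and day over 24 libraries in limma passed for 3 of the 11 tested members and for 1 relative, beside 31.6% of all tested entries, so that the members' share was not above that of the entries. The adjusted p was 0.00325 for miR-106a, 0.0258 for miR-20b, 0.0397 for miR-17-5p and 0.041 for miR-363. Only that of miR-106a held in all 24 fits without a library, while that of miR-20b held in 20, that of miR-363 in 10 and that of miR-17-5p in 7. Median-of-ratios scaling gave adjusted p of 0.00626, 0.0341, 0.151 and 0.0501 in the order miR-106a, miR-20b, miR-17-5p and miR-363.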

How the results depend on the processing

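Of the 26 calls of members over the 12 comparisons, 15 held in every fit without a library, 11 under median-of-ratios scaling and 2 in every alternative, miR-106a on day 4 and miR-20b on day 8 between sources. No called value changed sign. Without a filter on low values, 1 member was called between BF-0d and BF-8d (4 in the report), 0 between sources on day 0 (1), 0 on day 2 (4), 1 on day 4 (8), 5 on day 8 (9) and 1 by interaction (3). Over all 1587 entries these fits called 155, 76, 2, 50, 143 and 120, against 184, 126, 53, 156, 160 and 136 of 430 in the report. A mean of at least 10 TPM, which leaves out miR-106a, miR-20b, miR-17-3p and miR-92b-5p, gave 2 between BF-0d and BF-8d and 1 by interaction, beside 105 and 77 of 224 entries. Median-of-ratios scaling gave 0, 2, 3 and 4 between sources on days 0, 2, 4 and 8, edgeR 0, 2, 4 and 5, and DESeq2 0, 2, 5 and 6. Of the 430 entries median-of-ratios scaling called 101, 60, 120 and 147, edgeR 113, 68, 116 and 151, and DESeq2 111, 65, 127 and 143. The day 8 counts of these 3 settings include miR-92b-3p, higher in IMF, which is not among the 9. DESeq2 called 1 member between BF-2d and BF-4d and 2 between BF-0d and BF-8d, and 1 fit of all libraries called 5 between BF-2d and BF-4d (0 in the report). Of the 430 entries DESeq2 called 54 and 180 in these comparisons and the fit of all libraries 104 in the former, where limma called 26 in the report. The causes of these shifts were not tested.

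Without 1 library, the count ran from 0 to 1 between BF-0d and BF-2d (1 without BF-2d replicate 3), from 0 to 4 between BF-2d and BF-4d (4 without BF-4d replicate 1), from 2 to 6 between BF-0d and BF-8d (2 without BF-0d replicate 2), from 0 to 1 between IMF-0d and IMF-8d (1 without IMF-0d replicate 1) and from 1 to 4 by interaction. Over all 430 entries the counts ran from 0 to 42, 2 to 78, 146 to 176, 90 to 142 and 102 to 144, and in the first 2 of these comparisons the highest count came from the same fit as that of the members. Between sources it ran from 0 to 1 on day 0, from 0 to 5 on day 2, from 6 to 8 on day 4 and from 8 to 9 on day 8, beside 86 to 105, 2 to 85, 123 to 171 and 143 to 194 entries. The uncalled difference of miR-92b-3p between sources changed sign on day 0, from -0.17 to 0.034 with edgeR and to 0.039 without BF-0d replicate 2 (range -0.36 to 0.039), and on day 4 to -0.056 without BF-4d replicate 3 (range -0.056 to 0.56).

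With the replicate block, 0 members were called between sources on day 2 (4 in the report), beside 9 of 430 entries (53 in the report), and the other 11 comparisons and the interaction gave the same counts. Same-numbered libraries of these day 2 groups share only a number. Between BF-0d and IMF-0d, where every pair correlated above 0.1, the block gave 1 member. The scarce members set the limit of depth: miR-106a rests on 13 to 144 reads a library and miR-20b on 22 to 100.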
